A study of Mus musculus with 4 samples.

Results

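The platelet-derived growth factor (PDGF) family was followed through the cells of 2 mouse pancreatic tumors: the 4 ligand genes Pdgfa, Pdgfb, Pdgfc and Pdgfd and the 2 receptor genes Pdgfra and Pdgfrb. They were chosen by symbol, 6 of the 27998 genes listed, and all 6 had UMIs in every library. The tumors came from KPC mice, whose alleles include Trp53LSL-R172H/+ and Pdx1-Cre, on the C57BL/6J background, in which Cre under the Pdx1 promoter switches on mutant Trp53 in the pancreatic lineage. Both fractions therefore came from tumors of 1 genotype, and no wild-type pancreas was in the comparison. Libraries with the same replicate number were taken as 1 tumor. By that reading each tumor gave a sorted CAF fraction and an all live fraction. The sorted CAF fraction was gated as living cells that lacked CD45, CD31 and EpCAM and carried podoplanin, and the all live fraction was gated on viability alone. The stain included an antibody to PDGFRa, which the stated gate does not use. The labels used here give no ages. For all 4 libraries the digestion was at 37 C for 45 min.

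PDGFs are dimeric growth factors that act mainly between neighbouring cells. PDGF-AA and PDGF-CC bind PDGFRa, PDGF-BB binds both receptors and PDGF-DD binds mainly PDGFRb. The chains encoded by Pdgfc and Pdgfd are secreted in a latent form that a protease must open. Both receptors are tyrosine kinases of class III. PDGFRa is the usual receptor of fibroblasts and other mesenchymal cells, while PDGFRb is the receptor through which endothelial PDGF-BB recruits pericytes, the contractile cells that wrap capillaries. In pancreatic cancer the receptors are used as surface markers of cancer-associated fibroblasts (CAFs).

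The 4 libraries were made with the 10x 3' method, in which each RNA molecule is counted once by a unique molecular identifier (UMI). They held between 14972652 and 30950993 UMIs, and 7827 cells were analysed: 1386 and 1209 in the sorted CAF libraries of tumors 1 and 2, and 1903 and 3329 in the all live libraries of tumors 1 and 2. Cells were clustered on a random set of 14229 genes that left out the 6 PDGF genes, and 12 classes were named "-like" from lists of marker genes. The sort did not give the same cells in both tumors. Fibroblast-like cells made up 12.7% and 72.4% of the sorted CAF cells of tumors 1 and 2, against 7.36% and 3.45% of the all live cells. Ductal epithelial-like cells made up 76.2% of the sorted CAF cells of tumor 1 and 10.6% of those of tumor 2. The libraries shared 31 cell barcodes. Levels are given as CPM, the UMIs of a gene scaled to 1000000 UMIs summed over the cells of a class, with a 95% interval that covers counting error only, and libraries are always given in the order tumor 1, tumor 2. CPM was not used to rank one gene against another.

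Pdgfa, the gene of the PDGF-A chain, was read in all 12 classes, and its level in pericyte-like cells stood far above that in the others. Pericyte-like cells had 857 CPM in the sorted CAF library of tumor 2 (interval 781 to 940, 59 cells) and 898 CPM in the all live library of tumor 2 (721 to 1.11e+03, 19 cells). The 4 pericyte-like cells of the sorted CAF library of tumor 1 had 476 CPM, and the all live library of tumor 1 had none of these cells. Fibroblast-like cells had 40.7 and 47.1 CPM of Pdgfa in the sorted CAF libraries and 47.2 and 29.6 CPM in the all live libraries. The pericyte-like level was 18.2-fold that of fibroblast-like cells in the sorted CAF library of tumor 2 (interval 16 to 20.7) and 30.3-fold in the all live library of tumor 2 (18.7 to 51.4). Only tumor 2 had the 20 pericyte-like cells that a tested sum needed, so this difference has no test across tumors. The 9 pericyte markers summed to 7071 and 9862 CPM in the pericyte-like cells of the sorted CAF and all live libraries of tumor 2, against 97.6 and 62.1 CPM in the fibroblast-like cells. By the naming rule the cluster passed 9 pericyte and 5 smooth muscle markers, with Myh11 and Lmod1 among its leading genes. The name therefore does not separate pericytes from smooth muscle cells. The 6 smooth muscle markers summed to 2338 and 1968 CPM in the same pericyte-like cells, and the 13 fibroblast markers summed to 7073 and 5491 CPM, with Lum, Mmp2 and Pdpn at 0 in the all live library. Their part in the Pdgfa level was not tested.

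Pdgfa was in 98.3% and 100% of the pericyte-like cells of those libraries. With cells thinned to 2000 UMIs and shallower cells left out, the shares were 74.6% and 94.4%. They were between 7.95% and 9.29% in the fibroblast-like cells of the 4 libraries. The T or NK-like cells of tumor 2, taken as a class that should lack the gene, had Pdgfa in 3.05% of cells at a median of 2180 UMIs and in 0% after thinning. Those 2 shares are not of the same cells. Over all libraries thinning left out 71 of the 203 T or NK-like cells as too shallow, and 1 of the 82 pericyte-like cells. Median depths were 7884 and 5047 UMIs in the pericyte-like cells of the 2 libraries of tumor 2. The T or NK-like class was not pure by its markers, since a cluster of 78 cells passed 5 T or NK and 4 neutrophil markers. Over all libraries the macrophage receptor gene Csf1r had 124 CPM in T or NK-like and 190 CPM in B or plasma-like cells. In macrophage or monocyte-like cells it had 296 CPM. The part of such RNA in the lymphocyte levels was not tested.

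Below the pericyte-like cells, the Pdgfa levels of most parenchymal and stromal classes could not be put in order. Acinar-like cells had 70.8 CPM (40.4 to 115) in the sorted CAF library of tumor 2 and 101 CPM (77.3 to 130) in the all live library of tumor 2. The 14 ductal markers summed to 4736 and 4188 CPM in these acinar-like cells, and their part in the level was not tested. Blood endothelial-like cells had 46.5 CPM in the all live library of tumor 1 and 62.7 CPM in that of tumor 2, from 8 UMIs each. Ductal epithelial-like cells had 17.7 and 49.9 CPM in the sorted CAF libraries and 19.9 and 72.6 CPM in the all live libraries, so tumor 2 was higher in both fractions. The ductal cluster with the most cells differed between the tumors, being led by Aqp5 and Krt6a in tumor 1 and by Gkn3 in tumor 2, and within the Gkn3 cluster the direction turned round, with 190 CPM in tumor 1 and 59.8 CPM in tumor 2. Mesothelial-like cells, the class of the serosal lining, ranged from 23.9 to 84.2 CPM. In the all live fraction macrophage or monocyte-like cells had 19.7 and 37.0 CPM, while dendritic-like, T or NK-like, neutrophil-like and B or plasma-like cells had between 4.11 and 16.5 CPM where a library held at least 20 of them. The edgeR quasi-likelihood test with Benjamini-Hochberg adjustment, run on sums per tumor over both fractions, did not call Pdgfa between fibroblast-like cells and ductal epithelial-like (log2 fold change 0.30 ± 0.57 SE, adjusted p = 0.796), mesothelial-like (-0.16 ± 0.58, adjusted p = 1), blood endothelial-like (-0.58 ± 0.64, adjusted p = 0.726) or macrophage or monocyte-like cells (0.61 ± 0.58, adjusted p = 0.524).

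**Figure D1:**
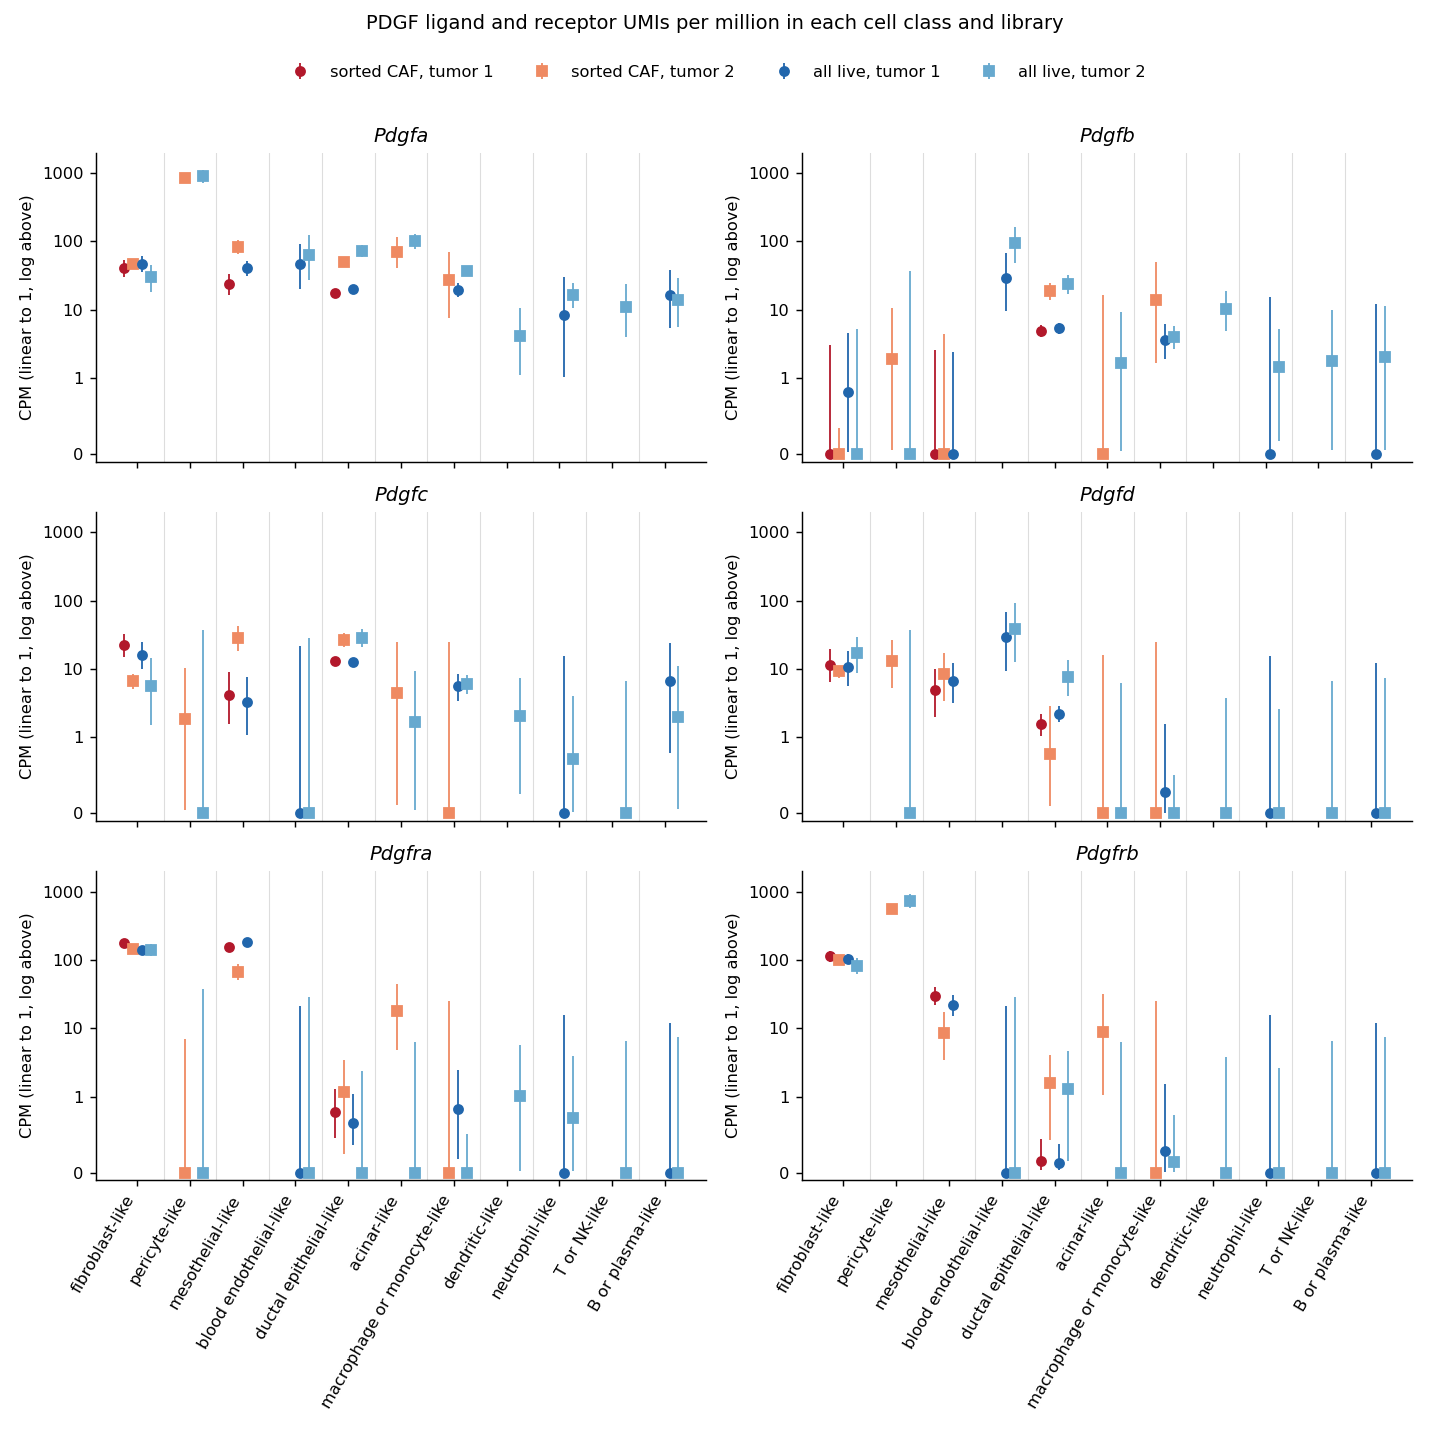
CPM of the 6 PDGF genes (1 panel each) by cell class, on an axis that is linear to 1 and logarithmic above, with a point for each library that held at least 19 cells of the class and bars for the 95% exact Poisson interval. Pdgfa and Pdgfrb peak in pericyte-like cells, Pdgfb in blood endothelial-like cells, and Pdgfra lies between 67.3 and 184 CPM in the fibroblast-like and mesothelial-like points and at or near 0 in the other classes plotted, apart from 17.7 CPM from 4 UMIs in acinar-like cells. Adipocyte-like cells are not plotted.

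Pdgfb, the ligand that binds both receptors, was almost absent from the mesenchymal classes and was read in endothelial, epithelial and myeloid ones. Fibroblast-like cells held 1 Pdgfb UMI in all: 0 in both sorted CAF libraries, 1 in the all live library of tumor 1 and 0 in that of tumor 2. In the sorted CAF library of tumor 2, with 875 fibroblast-like cells, a count of 0 allows a level of up to 0.283 CPM. Mesothelial-like cells held 0 UMIs in all 4 libraries. Blood endothelial-like cells had 29.1 CPM (9.44 to 67.9, 5 UMIs) in the all live library of tumor 1 and 94.0 CPM (48.6 to 164, 12 UMIs) in that of tumor 2. Ductal epithelial-like cells had 4.90 and 18.9 CPM in the sorted CAF libraries and 5.39 and 23.8 CPM in the all live libraries, again with tumor 2 above tumor 1, while within the Gkn3 cluster tumor 1 had 45.6 CPM and tumor 2 had 21.5 CPM. Macrophage or monocyte-like cells had 3.61 and 3.97 CPM and dendritic-like cells of tumor 2 had 10.3 CPM in the all live libraries. Summed over both fractions, blood endothelial-like cells were above ductal epithelial-like cells 5.63-fold in tumor 1 (interval 1.81 to 13.3) and 5.24-fold in tumor 2 (2.92 to 8.89), and in the all live library of tumor 2 alone 3.96-fold (1.88 to 7.76).

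Pdgfb was lower in fibroblast-like cells than in 3 of the 4 classes tested. Against ductal epithelial-like cells there were 1 UMI in fibroblast-like and 307 UMIs in ductal epithelial-like cells. The ductal level was 12.6-fold higher in tumor 1 (interval 2.23 to 498). With 3 counts taken as the fibroblast-like floor of tumor 2, it was 78.3-fold higher there, a value that leaves out the counting error of the ductal UMIs. The adjusted p over both tumors was 0.00321 (edgeR's quasi-likelihood test). Of all genes tested in that comparison 20.6% passed, 12.8% as higher and 7.85% as lower in fibroblast-like cells. Against blood endothelial-like cells, with 1 UMI in fibroblast-like and 22 UMIs in endothelial-like cells, the endothelial level was 70.8-fold higher in tumor 1 (7.92 to 3346). With the same floor of 3 counts it was 410-fold higher in tumor 2 and 22.2-fold higher in the all live library of tumor 2 alone. Both values leave out the counting error of the few endothelial UMIs. The adjusted p over both tumors was 0.00283 (edgeR's quasi-likelihood test), in a comparison where 6.18% of genes passed, 3.09% in each direction. Against macrophage or monocyte-like cells Pdgfb was lower with an adjusted p of 0.0123, in a comparison where 25% of genes passed, 16.1% as higher and 8.86% as lower in fibroblast-like cells. Without the fibroblast-like sum of tumor 2 the adjusted p was 0.0722 against ductal epithelial-like cells and 0.209 against macrophage or monocyte-like cells, and in the all live libraries alone it was 0.152 against macrophage or monocyte-like cells. The adjusted p ranged over the alternatives from 6.24e-08 to 0.0722 for the ductal comparison and from 0.000117 to 0.209 for the macrophage one. The single UMI lay in the sum of tumor 1. With 1 UMI in fibroblast-like and 0 UMIs in mesothelial-like cells, no fold against mesothelial-like cells is given.

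Pdgfc, whose product is secreted in a latent form, was read at low levels in ductal epithelial-like, fibroblast-like, mesothelial-like and macrophage or monocyte-like cells, and the order of the tumors was not the same in all classes. Fibroblast-like cells had 22.4 and 6.59 CPM in the sorted CAF libraries and 16.3 and 5.65 CPM in the all live libraries, so tumor 1 was higher in both fractions. The 14 ductal markers summed to 296 and 51.9 CPM in these fibroblast-like cells of the sorted CAF libraries and to 896 and 43.8 CPM in those of the all live libraries, also higher in tumor 1, and between 10814 and 21452 CPM in ductal epithelial-like cells. Their part in the Pdgfc level was not tested. Ductal epithelial-like cells had 13.0 and 26.7 CPM in the sorted CAF libraries and 12.6 and 28.9 CPM in the all live libraries, so here tumor 2 was higher, while within the Gkn3 cluster tumor 1 had 55.2 CPM and tumor 2 had 30.9 CPM. Mesothelial-like cells had 4.21 and 28.9 CPM in the sorted CAF libraries and 3.29 and 56.7 CPM in the all live libraries, the last from 6 UMIs in 12 cells. Macrophage or monocyte-like cells had 5.56 CPM in tumor 1 and 6.03 CPM in tumor 2 in the all live fraction. Blood endothelial-like cells held 0 Pdgfc UMIs, and the floor of 3 counts in the all live libraries was 17.4 and 23.5 CPM, above the fibroblast-like level in the same libraries. By edgeR's quasi-likelihood test with Benjamini-Hochberg adjustment Pdgfc did not pass against ductal epithelial-like (-0.65 ± 0.80 on the log2 scale, adjusted p = 0.655), mesothelial-like (-0.30 ± 0.84, adjusted p = 1) or macrophage or monocyte-like cells (1.04 ± 0.82, adjusted p = 0.438). With 0 UMIs on the endothelial side that comparison gave an adjusted p of 0.272.

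Pdgfd, the ligand of PDGFRb, was read in fibroblast-like, pericyte-like, blood endothelial-like, mesothelial-like and ductal epithelial-like cells and was close to absent from leukocyte classes. Fibroblast-like cells had 11.6 and 9.23 CPM in the sorted CAF libraries and 10.6 and 16.9 CPM in the all live libraries. The 4 intervals overlapped. Pericyte-like cells had 13.1 CPM (5.27 to 27.0, 7 UMIs) in the sorted CAF library of tumor 2. They had 0 UMIs in the sorted CAF library of tumor 1 and the all live library of tumor 2. With 4 and 19 such cells, those libraries were too small for a count of 0 to show a lower level. Blood endothelial-like cells had 29.1 and 39.2 CPM in the all live libraries, from 5 UMIs each. Macrophage or monocyte-like cells held 1 UMI among 475 cells of the all live library of tumor 1 and 0 among 1868 cells of that of tumor 2. Ductal epithelial-like cells had 1.55 and 0.786 CPM in the sorted CAF libraries and 2.22 and 7.71 CPM in the all live libraries, below the fibroblast-like level of the same library in each case. Pdgfd was higher in fibroblast-like cells than in macrophage or monocyte-like cells (adjusted p = 0.00084, edgeR's quasi-likelihood test, 137 UMIs in fibroblast-like and 1 UMI in macrophage or monocyte-like cells). Against ductal epithelial-like cells it was higher by 2.03 ± 0.65 on the log2 scale with an adjusted p of 0.0494, higher in both tumors, 5.82-fold in tumor 1 and 2.84-fold in tumor 2. That call did not hold under 10 of the alternatives tried, with adjusted p between 0.0511 and 0.334 there and 0.0213 at the lowest over all alternatives. It did not pass against mesothelial-like (0.69 ± 0.67, adjusted p = 1) or blood endothelial-like cells (-1.15 ± 0.74, adjusted p = 0.468).

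The receptor Pdgfra was a transcript of fibroblast-like and mesothelial-like cells. Fibroblast-like cells had 176 (interval 153 to 201) and 147 CPM (140 to 155) in the sorted CAF libraries, against 138 (118 to 161) and 141 CPM (115 to 172) in the all live libraries. Mesothelial-like cells had 154 and 67.3 CPM in the sorted CAF libraries and 184 and 123 CPM in the all live libraries, overlapping the fibroblast-like range. The 10 mesothelial markers summed to between 1984 and 2676 CPM in mesothelial-like cells and to between 221 and 471 CPM in fibroblast-like cells, and the 13 fibroblast markers to between 13997 and 19091 CPM in mesothelial-like cells. Pericyte-like cells held 0 Pdgfra UMIs in all 3 libraries that had them, and the 59 cells of the sorted CAF library of tumor 2 allow up to 5.62 CPM. Blood endothelial-like cells held 0 UMIs, T or NK-like and B or plasma-like cells of the all live libraries held 0 UMIs, and ductal epithelial-like cells had between 0 and 1.18 CPM. In the sorted CAF library of tumor 2, 29 acinar-like cells had 17.7 CPM from 4 UMIs and 27 adipocyte-like cells had 15.1 CPM from 5 UMIs. The fibroblast-like cells with a Pdgfra UMI were 64.2% and 70.9% of those in the sorted CAF libraries and 68.6% and 48.7% of those in the all live libraries. After thinning to 2000 UMIs the shares were 29.0% and 26.7% in the sorted CAF libraries and 26.4% and 29.1% in the all live libraries. In ductal epithelial-like cells, which should lack the gene, Pdgfra was in at most 2.34% of cells before and 0.19% after thinning. Median depths in the sorted CAF and then the all live libraries were 6087.5, 10543, 7121.5 and 5273 UMIs in fibroblast-like cells and 17711.5, 16844, 19070.5 and 7362 UMIs in ductal epithelial-like cells.

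Against ductal epithelial-like cells Pdgfra was 7.62 ± 0.81 higher on the log2 scale in fibroblast-like cells (adjusted p = 0.000244, edgeR's quasi-likelihood test), 218-fold in tumor 1 (interval 151 to 325) and 201-fold in tumor 2 (68.6 to 975). Against macrophage or monocyte-like cells it was 8.84 ± 0.93 higher (adjusted p = 0.000126). Against blood endothelial-like cells it was 16.3-fold higher with 3 counts over both tumors taken as the endothelial floor, and the adjusted p was 0.00578. That adjusted p was 0.0582 without the endothelial sum of tumor 1 and 0.0552 without that of tumor 2, with a range over all alternatives of 2.58e-10 to 0.0582. Between fibroblast-like and mesothelial-like cells Pdgfra was not called, with 157 and 147 CPM in the fibroblast-like sums of tumors 1 and 2 and 170 and 73.6 CPM in the mesothelial-like sums (0.41 ± 0.59, adjusted p = 1). In that comparison 1.21% of genes passed (0.694% as higher and 0.512% as lower in fibroblast-like cells) and none of the 6 PDGF genes did. With the tumor as a block 164 genes passed in place of 73, still with none of the 6.

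Pdgfrb, the receptor of pericytes and fibroblasts, was highest in pericyte-like cells and next in fibroblast-like cells. Pericyte-like cells had 565 CPM (503 to 633) in the sorted CAF library of tumor 2 and 727 CPM (569 to 915) in the all live library of tumor 2, and the 4 cells of tumor 1 had 566 CPM. Fibroblast-like cells had 113 and 101 CPM in the sorted CAF libraries and 104 and 81.9 CPM in the all live libraries. The pericyte-like level was 5.61-fold (4.92 to 6.38) and 8.88-fold (6.20 to 12.8) that of fibroblast-like cells in the sorted CAF and all live libraries of tumor 2, with no test across tumors. Mesothelial-like cells had 30.2 and 8.42 CPM in the sorted CAF libraries and 21.7 and 9.44 CPM in the all live libraries, below fibroblast-like cells in each library. Fibroblast-like cells with a Pdgfrb UMI were 49.4% and 54.9% in the sorted CAF libraries and 45.7% and 33.0% in the all live libraries. After thinning the same 4 shares were 22.2%, 15.1%, 14.3% and 16.4%.

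Pdgfrb was higher in fibroblast-like than in ductal epithelial-like cells (7.79 ± 1.12 on the log2 scale, adjusted p = 0.00103, edgeR's quasi-likelihood test) and than in macrophage or monocyte-like cells (8.92 ± 1.26, adjusted p = 0.000536). The fibroblast-like level was 4.20-fold the mesothelial-like one in tumor 1 and 11.7-fold in tumor 2, but the test over all genes did not call it (2.62 ± 0.84, adjusted p = 0.241). Without the filter on low counts that adjusted p was 0.00107, in a range over alternatives of 0.00107 to 0.912. Against blood endothelial-like cells Pdgfrb was not called (3.48 ± 1.12, adjusted p = 0.108), though the adjusted p was 0.000324 with no filter and 0.0173 in the all live libraries alone, within a range of 0.000324 to 0.432. The 4 endothelial UMIs of Pdgfrb lay in 1 of the 2 blood endothelial-like cells of the sorted CAF library of tumor 2, which together had 450 CPM of Pdgfa, and the 51 such cells of the all live libraries held 0. The median log2 difference over all genes of the endothelial comparison was 0.28 with TMM scaling and 0.11 with RLE scaling, and the values given are not corrected for it.

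The annotated promoters of 2 genes that were both higher in fibroblast-like than in macrophage or monocyte-like cells are shown for reference, as the 250 bases before the RefSeq start on the build GRCm38.p6, plus strand. Pdgfra lies on chr5:75152292-75198215 and Pdgfd on chr9:6168584-6378850, both on the plus strand of mm10, and the windows are chr5:75152001-75152250 and chr9:6168236-6168485. Capitals mark a TATAAA match.
Pdgfra: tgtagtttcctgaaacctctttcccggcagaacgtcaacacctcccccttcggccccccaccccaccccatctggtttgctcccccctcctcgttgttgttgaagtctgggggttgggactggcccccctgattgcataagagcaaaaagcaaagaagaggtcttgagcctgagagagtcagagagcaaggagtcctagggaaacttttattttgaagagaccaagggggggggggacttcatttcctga
Pdgfd: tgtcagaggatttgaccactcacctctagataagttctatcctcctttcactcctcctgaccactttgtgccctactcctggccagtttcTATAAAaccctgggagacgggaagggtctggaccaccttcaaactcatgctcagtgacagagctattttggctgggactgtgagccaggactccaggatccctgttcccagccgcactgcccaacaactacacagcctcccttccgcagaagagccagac
The Pdgfra window had a GC content of 54.4% with 4 CpG dinucleotides, and the Pdgfd window 53.6% with 3. Both CpG counts were below the median of 6 over 32851 promoter windows, whose median GC content was 52.4%. Searched on both strands, TATAAA was in the Pdgfd window and in 12.4% of all windows, while GGGCGG (32.7% of all windows) and CCAAT (33.8%) were in neither. The Pdgfc window, on chr3:81036166-81036415, held none of the 3 motifs. The 2 windows of Pdgfa, which has 2 annotated starts, had 19 and 28 CpG dinucleotides and 1 and 2 GGGCGG matches.

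The balance of the receptors differed between the mesenchymal classes. Of the Pdgfra and Pdgfrb UMIs combined, the Pdgfra share was 60.9% and 59.4% in fibroblast-like cells of the sorted CAF libraries and 57.0% and 63.3% in those of the all live libraries. In mesothelial-like cells it was 83.6% and 88.9% in the sorted CAF libraries and 89.5% and 92.9% in the all live libraries. Pericyte-like cells had a share of 0% in every library that had them. The values of the 3 classes did not overlap in any library, while the intervals of mesothelial-like and fibroblast-like cells did in the all live library of tumor 2, where 12 mesothelial-like cells were read. Within fibroblast-like cells, Pdgfrb was read in cells with and without Pdgfra. Pdgfrb was in 51.3% of fibroblast-like cells with a Pdgfra UMI and in 46.0% of those without in the sorted CAF library of tumor 1, 56.3% and 51.4% in that of tumor 2, 44.8% and 47.7% in the all live library of tumor 1, and 39.3% and 27.1% in that of tumor 2.

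**Figure D2:**
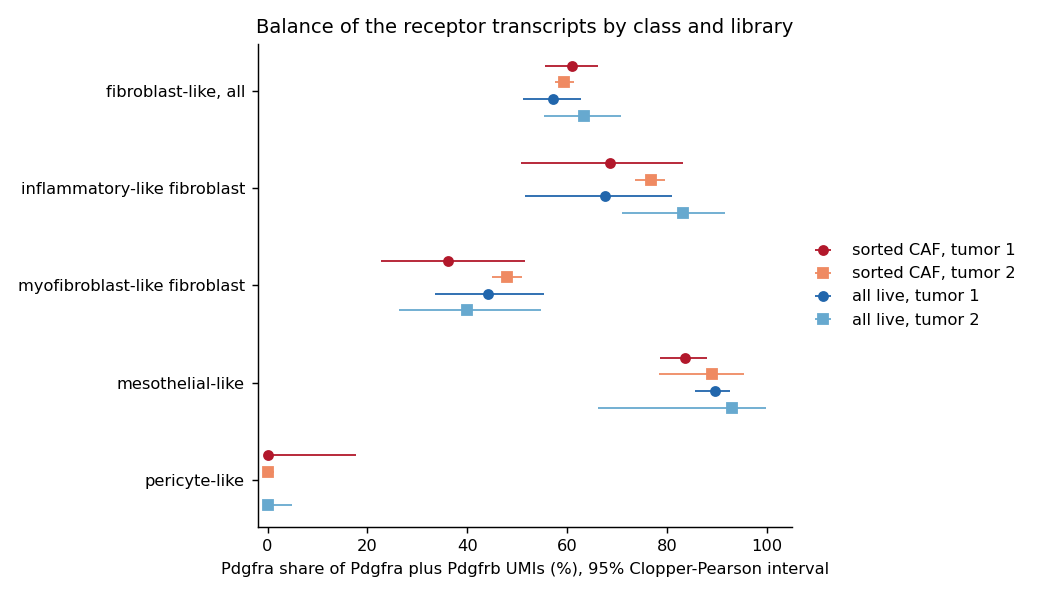
Pdgfra UMIs as a percentage of Pdgfra plus Pdgfrb UMIs, by class or fibroblast subclass (vertical) and library (colour), with 95% Clopper-Pearson intervals. Fibroblast-like points lie between 57.0% and 63.3%, mesothelial-like points between 83.6% and 92.9% and pericyte-like points at 0%, and inflammatory-like fibroblasts lie above myofibroblast-like ones in every library.

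Fibroblast-like cells were clustered again into inflammatory-like cells (36 and 283 cells in tumors 1 and 2), myofibroblast-like cells (68 and 409) and 3 subclusters without a name. Of these 2 had under 3 markers of any subclass, and 1 of 12 cells had 5 antigen-presenting markers but leukocyte genes such as Tyrobp and C1qb among its leading genes. Inflammatory CAFs are known for secreted cytokines and myofibroblastic CAFs for contractile genes. Of the myofibroblast-like cells 128 were in a subcluster led by cell-cycle genes such as Plk1 and Cdc20, which in tumor 2 had 122 CPM of Pdgfra (189 UMIs) beside 92.3 CPM (371 UMIs) in the other myofibroblast-like subcluster. Pdgfra had 200 CPM (150 to 261) in tumor 1 and 226 CPM (209 to 244) in tumor 2 in inflammatory-like cells, against 71.8 CPM (54.1 to 93.4) in tumor 1 and 101 CPM (92.5 to 109) in tumor 2 in myofibroblast-like cells. Pdgfd had 15.1 and 13.8 CPM in the inflammatory-like cells of tumors 1 and 2, from 4 and 40 UMIs, against 1.30 and 4.67 CPM in the myofibroblast-like cells, from 1 and 26 UMIs. Pdgfa ran the other way, with 41.5 and 29.8 CPM in inflammatory-like cells and 60 and 64.5 CPM in myofibroblast-like cells. Pdgfrb had 94.2 and 67.2 CPM in inflammatory-like cells and 102 and 111 CPM in myofibroblast-like cells. For these 4 genes the tumors' point values did not overlap between the subclasses. In tumor 2 the counting intervals did not overlap either. In tumor 1 those of inflammatory-like and myofibroblast-like cells overlapped for Pdgfrb (61.0 to 139 and 80.5 to 127 CPM). They also did for Pdgfa (20.7 to 74.2 and 43.9 to 80.1 CPM) and Pdgfd (4.11 to 38.6 and 0.033 to 7.27 CPM).

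None of the 5 PDGF genes tested passed between the subclasses by edgeR's quasi-likelihood test with Benjamini-Hochberg adjustment, where 2.78% of genes did, 1.52% as higher and 1.26% as lower in inflammatory-like cells. Pdgfra differed by 1.35 ± 0.34 on the log2 scale (adjusted p = 0.0826), Pdgfd by 1.96 ± 0.60 (adjusted p = 0.156), Pdgfa by -0.83 ± 0.35 (adjusted p = 0.344), Pdgfrb by -0.40 ± 0.33 (adjusted p = 0.742) and Pdgfc by 0.04 ± 0.63 (adjusted p = 0.997). The sums are paired by tumor where libraries with the same number are taken as 1 tumor. With that tumor as a replicate block in the edgeR test, 695 genes passed in place of 130. Among them were Pdgfra (adjusted p = 2.55e-06), Pdgfd (0.00454) and Pdgfa (-0.87 on the log2 scale, 0.0256), but not Pdgfrb (0.287). Over all alternatives the adjusted p of Pdgfra ranged from 2.55e-06 to 0.405, that of Pdgfd from 0.00454 to 0.703 and that of Pdgfa from 0.0256 to 1. The Pdgfra share of receptor UMIs was 67.9% and 77.1% in the inflammatory-like cells of tumors 1 and 2, against 41.4% and 47.5% in the myofibroblast-like cells.

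**Figure D3:**
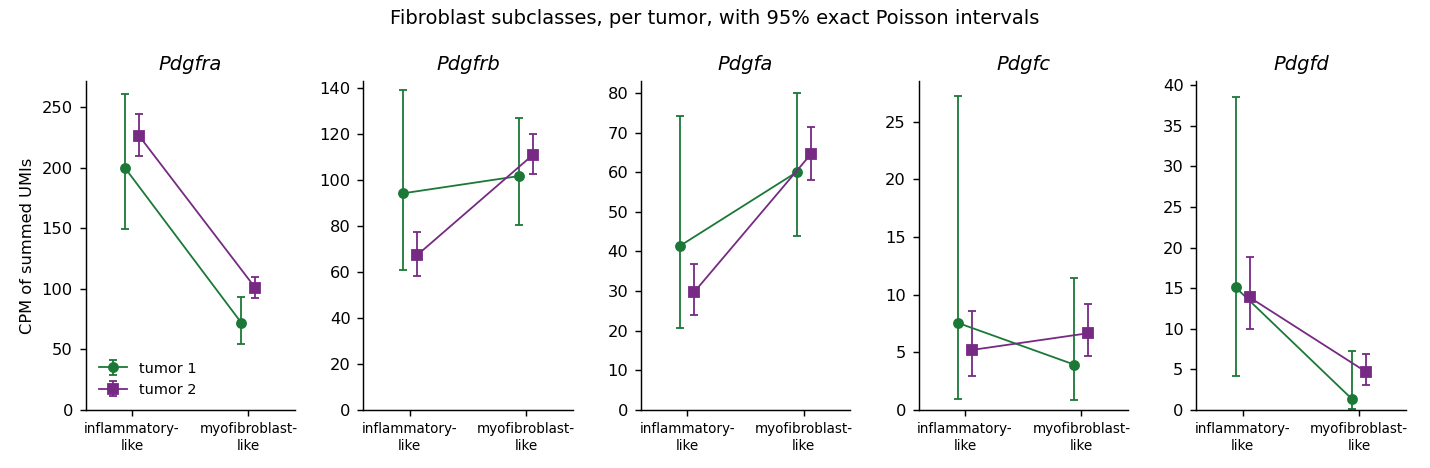
CPM of 5 PDGF genes in inflammatory-like (left) and myofibroblast-like (right) fibroblasts, with a line for each tumor and 95% exact Poisson intervals on axes that start at 0. Pdgfra and Pdgfd were higher and Pdgfa and Pdgfrb lower in the inflammatory-like cells of both tumors, while the Pdgfc lines cross.

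The 2 larger fibroblast subclusters without a name were mostly of 1 tumor, so a state and a tumor cannot be told apart in them. The one led by Gpnmb, Chchd10 and Itgbl1, with 201 cells in tumor 1, had 32.1 CPM of Pdgfc (23.1 to 43.4) and 197 CPM of Pdgfra. The one led by Ccl24, with 283 cells in tumor 2, had 5.49 CPM of Pdgfc and 160 CPM of Pdgfra. Within the inflammatory-like subclass of tumor 2, the subcluster with Cxcl13 among its leading genes (179 cells) had 261 CPM of Pdgfra (237 to 286) and 56.4 CPM of Pdgfrb, a Pdgfra share of 82.2%, and the one with Sema3c (104 cells) a share of 67.7%.

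The epithelial ligands varied between ductal epithelial-like clusters of the same tumor. In tumor 1 the cluster led by Gkn3, Agr2 and Duox2 (33 cells) had 190 CPM of Pdgfa (150 to 236), 45.6 CPM of Pdgfb and 55.2 CPM of Pdgfc. The cluster led by Aqp5 and Krt6a (857 cells) had 6.83 CPM of Pdgfa (5.82 to 7.97), 4.20 CPM of Pdgfb and 8.62 CPM of Pdgfc, and that with Npy and Cpe (516 cells) 48.4, 10.0 and 28.3 CPM of Pdgfa, Pdgfb and Pdgfc. All 3 ligands were thus higher in the first cluster than in the other two, and the median depths were 10790, 27047 and 13446.5 UMIs. The cluster led by Fabp2 and Tff1 (240 cells in tumor 1) had 3 Pdgfa UMIs and 0 Pdgfb UMIs. In tumor 2 the Gkn3 cluster (213 cells) had 59.8 CPM of Pdgfa, 21.5 CPM of Pdgfb and 30.9 CPM of Pdgfc. Clusters of cells are not replicates, and these differences have no test.

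Some macrophage or monocyte-like clusters differed in their levels of Pdgfc and Pdgfa. The cluster led by Ccl8, Cd163 and Folr2 had 25.7 CPM of Pdgfc in tumor 1 (10.3 to 52.9) and 15.7 CPM in tumor 2 (10.4 to 22.7), and its Pdgfa level was 25.7 CPM in tumor 1 and 34.8 CPM in tumor 2 (26.7 to 44.6). The Ly6c2 cluster of tumor 2 (339 cells) had 0 Pdgfc UMIs and 11.5 CPM of Pdgfa, and the cluster with Ccr2 and Ear2 (876 cells) had 2.21 CPM of Pdgfc and 44.7 CPM of Pdgfa (37.7 to 52.7). This Pdgfa interval overlapped that of the Folr2 cluster in tumor 2. The clusters led by Mmp12 and by Hist1h1b are not described here. As with the ductal clusters, cells are not replicates and the differences have no test.

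The classes that held each transcript's UMIs differed between the libraries. Pericyte-like cells were 4.88% of the sorted CAF cells and 0.571% of the all live cells of tumor 2. They held 37.9% of the Pdgfa UMIs and 21.7% of the Pdgfrb UMIs in the sorted CAF library of tumor 2, and 14.7% and 53.7% of them in the all live library of tumor 2. Of the Pdgfra UMIs, fibroblast-like cells held 47.4% and 95.8% in the sorted CAF libraries and 36.3% and 87.0% in the all live libraries, with mesothelial-like cells holding 49.0% and 59.8% in the sorted CAF and all live libraries of tumor 1. Of the UMIs of all genes, fibroblast-like cells held 5.31% and 69.3% in the sorted CAF libraries and 4.07% and 5.09% in the all live libraries. Mesothelial-like cells held 6.28% and 5.03% in the sorted CAF and all live libraries of tumor 1. Ductal epithelial-like cells held all 98 Pdgfb UMIs of the sorted CAF library of tumor 1, and 84.2% of those of the sorted CAF library of tumor 2, 86.7% in the all live library of tumor 1 and 39.8% in that of tumor 2. Their share of the UMIs of all genes was 88.1% and 16.6% in the sorted CAF libraries and 76.2% and 11.2% in the all live libraries. The Pdgfb share stood far above that in tumor 2 and nearer to it in tumor 1.

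**Figure D4:**
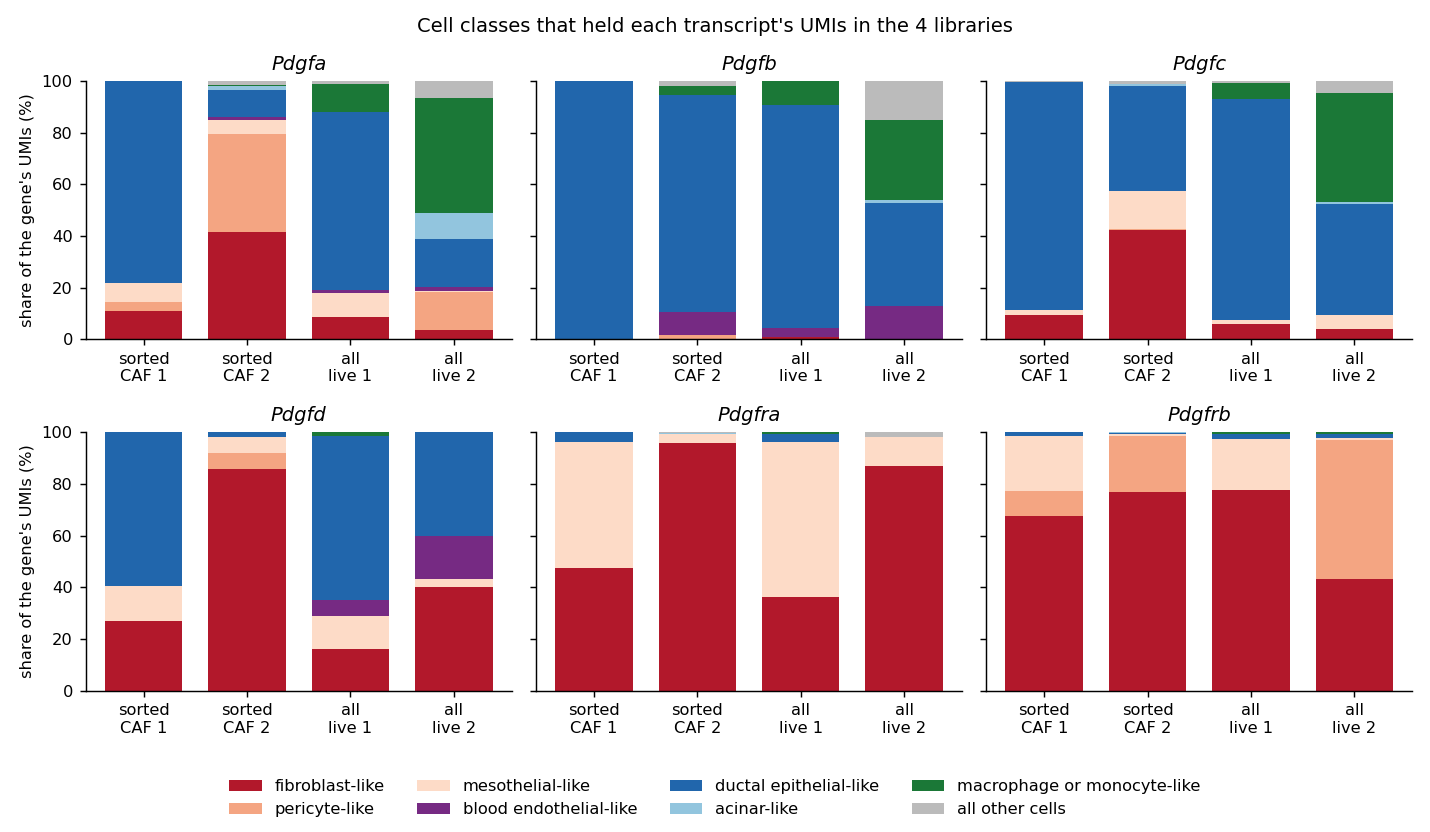
Share of each gene's UMIs (%, stacked to 100) held by the cell classes, for the 6 PDGF genes and the 4 libraries. Pdgfra and Pdgfrb UMIs come almost wholly from fibroblast-like, mesothelial-like and pericyte-like cells, while ductal epithelial-like cells hold most Pdgfb UMIs in 3 of the 4 libraries. In the sorted CAF and all live libraries of tumor 1 they also hold 88.1% and 76.2% of the UMIs of all genes.

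The study's own comparison was of the sorted CAF with the all live fraction. Over all cells Pdgfra had 19.7 and 107 CPM in the sorted CAF libraries, against 15.5 and 8.26 CPM in the all live libraries. Pdgfrb had 8.86 and 90.8 CPM in the sorted CAF libraries, against 5.47 and 9.62 CPM in the all live libraries. For Pdgfrb the sorted CAF value of tumor 1 lay within the all live range, and for Pdgfra both sorted CAF values lay above it. Pdgfra was 1.27-fold higher in the sorted CAF fraction of tumor 1 (1.11 to 1.45) and 12.9-fold in that of tumor 2 (10.7 to 15.7), beside the fibroblast-like shares given above. Pdgfb was 0.911-fold and 0.557-fold in the sorted CAF against the all live fraction of tumors 1 and 2.

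Within fibroblast-like cells the ratios of both receptors in tumor 2, and of Pdgfrb in tumor 1, lay nearer to 1 than over all cells, while that of Pdgfra in tumor 1 was 1.27 in both. The sorted CAF over all live ratio of Pdgfra was 1.27 (1.03 to 1.56) in tumor 1 and 1.04 (0.853 to 1.29) in tumor 2, that of Pdgfrb was 1.08 and 1.23, that of Pdgfa 0.861 and 1.59, that of Pdgfc 1.38 and 1.17 and that of Pdgfd 1.10 and 0.545. By edgeR's quasi-likelihood test with Benjamini-Hochberg adjustment 0% of genes passed between the fractions, over all cells and within fibroblast-like cells, and none of the PDGF genes did (adjusted p = 1 for each). At an unadjusted p under 0.05 the counts were 543 genes over all cells and 63 within fibroblast-like cells, and DESeq2 called 438 and 19. The tumor as a replicate block gave 85 calls within fibroblast-like cells and none of a PDGF gene. Over all cells the log2 differences were 2.31 ± 0.95 for Pdgfra and 2.61 ± 1.18 for Pdgfrb, and within fibroblast-like cells 0.19 ± 0.28 and 0.18 ± 0.28. An exact two-sided permutation test of 2 against 2 libraries cannot go below p = 0.333.

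**Figure D5:**
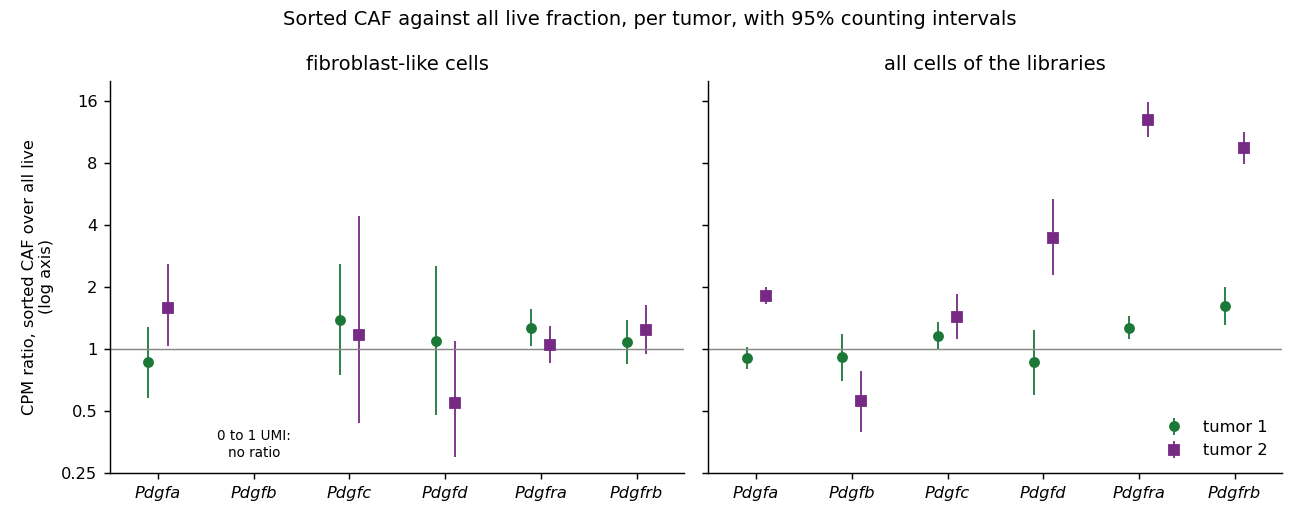
Ratio of CPM in the sorted CAF over the all live fraction (log axis) for the 6 PDGF genes, within fibroblast-like cells (left) and over all cells (right), with a point for each tumor and 95% conditional exact intervals. Over all cells tumor 2 reached 12.9 for Pdgfra and 9.44 for Pdgfrb, while within fibroblast-like cells the ratios of these genes lay between 1.04 and 1.27.

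A list of 34 other genes of PDGF signalling held proteases, co-receptors, transducers, negative regulators and class III relatives. Against ductal epithelial-like cells 10 of the 34 were higher and 2 lower by the same edgeR test, where 12.8% of all genes were higher and 7.85% lower, with a median log2 difference of 0.49 over the list and 0.02 over all genes tested. Of the 5 co-receptors and matrix partners 4 were higher. Lrp1, a co-receptor of PDGFRb, had 602 and 459 CPM in the fibroblast-like sums of tumors 1 and 2, against 12.3 and 34.9 CPM in the ductal epithelial-like sums (4.56 ± 0.57 on the log2 scale, adjusted p = 0.000297). Sparc, a matrix protein that binds PDGF, had 8161 and 9891 CPM in fibroblast-like sums, against 26.3 and 75.8 CPM in ductal epithelial-like sums (adjusted p = 0.00238). Pcsk5, a proprotein convertase, had 156 and 131 CPM in fibroblast-like sums, against 0.209 and 0.731 CPM in ductal epithelial-like sums (adjusted p = 0.000528). The lower ones were St14, the protease matriptase, with 0 UMIs in fibroblast-like sums against 1.02 and 17.6 CPM in ductal epithelial-like sums (adjusted p = 0.0152), and Dusp6, a phosphatase that damps ERK signalling, with 21.0 and 12.6 CPM in fibroblast-like sums against 112 and 72.7 CPM in ductal epithelial-like sums (-2.51 ± 0.46, adjusted p = 0.00221).

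Against mesothelial-like cells 1 of the 34 passed, where 1.21% of all genes did. It was Nrp1, a co-receptor of several growth factors, with 259 and 258 CPM in fibroblast-like sums against 20.1 and 5.33 CPM in mesothelial-like sums (4.34 ± 0.95, adjusted p = 0.0485). Against blood endothelial-like cells 2 were higher and 2 lower, beside 3.09% of all genes in each direction. Lrp1 had 5.82 and 19.2 CPM in the endothelial sums (5.83 ± 0.72, adjusted p = 0.000579) and Pcsk5 had 0 UMIs there (adjusted p = 0.015). Dusp6 had 215 and 147 CPM in the endothelial sums (-3.07 ± 0.49, adjusted p = 0.00295), and Kit had 0.411 and 0.265 CPM in fibroblast-like sums against 64.0 and 109 CPM in endothelial sums (adjusted p = 0.00123).

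Against macrophage or monocyte-like cells 8 of the 34 were higher and 6 lower, beside 16.1% and 8.86% of all genes. Sparc had 11.4 and 10.1 CPM in the macrophage or monocyte-like sums (9.67 ± 1.53, adjusted p = 0.000611), and Pcsk5 had 0 and 1 UMIs there (adjusted p = 0.000289). Plat, which encodes tissue plasminogen activator, the protease that opens PDGF-CC, had 427 and 325 CPM in fibroblast-like sums against 4.99 and 2.28 CPM in macrophage or monocyte-like sums (6.68 ± 0.92, adjusted p = 0.000281). In ductal epithelial-like sums Plat had 288 and 205 CPM. Csf1r was lower, with 10.7 and 8.03 CPM in fibroblast-like sums against 272 and 308 CPM in macrophage or monocyte-like sums (-5.02 ± 0.97, adjusted p = 0.00216). The phosphatase gene Ptpn1 was lower too, with 64.1 and 50.1 CPM in fibroblast-like sums against 387 and 268 CPM in macrophage or monocyte-like sums (-2.57 ± 0.48, adjusted p = 0.00165), as was Flt3, with 0 UMIs in fibroblast-like sums against 6 and 15 UMIs in macrophage or monocyte-like sums (adjusted p = 0.0113). Between inflammatory-like and myofibroblast-like cells 1 of the 31 tested passed, a share near the 2.78% of all genes. It was the convertase gene Pcsk6, with 18.8 and 31.5 CPM in inflammatory-like sums against 3.91 and 2.16 CPM in myofibroblast-like sums (3.50 ± 0.57, adjusted p = 0.0164). Between the fractions none of the 34 passed, over all cells or within fibroblast-like cells.

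Each receptor gene lies beside another class III receptor gene that was highest in another cell class. Kit starts 376700 bases past Pdgfra on chromosome 5, and Csf1r lies 15536 bases from Pdgfrb on chromosome 18. Csf1r, the receptor of macrophage growth factors, had 273 and 306 CPM in the all live libraries' macrophage or monocyte-like cells, where Pdgfrb had 0.278 and 0.137 CPM. Both were read in mesothelial-like cells, with 19.3 CPM of Csf1r and 21.6 CPM of Pdgfrb over all libraries. In fibroblast-like cells Csf1r had 8.50 CPM and Pdgfrb 101 CPM over all libraries. Kit had 64.0 and 110 CPM in the blood endothelial-like cells of the all live libraries, where Pdgfra had 0 UMIs. On mm10, Pdgfa lies on chr5:138976014-138997370 and Pdgfb on chr15:79995874-80014977, both on the minus strand, and Pdgfc on chr3:81036416-81214040 and Pdgfrb on chr18:61045150-61085061, both on the plus strand. Genes on the opposite strand overlap 5 of the 6 PDGF genes in the annotation, all but Pdgfrb, and none of the sources states the strand setting of the counting.

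The genes whose levels ran most alike were found over 26 library-by-class sums from the same 4 libraries, as a description. Pearson's r of log2(CPM + 1) with Pdgfra was highest for Rspo1 (0.964), Wt1 (0.963) and Fzd2 (0.960). Rspo1 and Wt1 were on the list of mesothelial markers. For Pdgfrb it was highest for Cd248 (0.963), Arhgef25 (0.949) and Prrx1 (0.947), and for Pdgfd for Ltbp4 (0.928), Lmcd1 (0.910) and Armcx1 (0.905). The values were lower for Pdgfc (Slc4a4, 0.832), Pdgfb (Tnfaip8l1, 0.819) and Pdgfa (Nes, 0.762).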

How the data were processed

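The deposited files hold raw UMI counts per gene and barcode for 4 libraries. Per the submitters' processing notes, the authors used CASAVA 1.4, Cell Ranger 2.0.0 and the build mm10. The tables of genes and barcodes deposited beside them hold names (other text) only. The 6 PDGF genes, the marker lists and the pathway list were chosen with earlier results of these data known. The technical replicates that the design text mentions could not be told apart, so a library is 1 sample. The 2 tumors are biological replicates per the labels, and libraries with the same number were taken as 1 tumor.

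Of 8282 barcodes with 85230726 UMIs, 7984 passed the minimum of 500 genes and the maximum of 10% mitochondrial UMIs. The scrublet caller of scanpy 1.11.5 marked 27 (0.338%), too few to have worked, so the highest scores at 0.8% per 1000 barcodes were left out, 157 cells. Genes were split at random with a fixed seed. Cells were clustered on 1 set of 14229 genes, which held the markers, with 2000 variable genes, 30 principal components, 15 neighbours and Leiden resolution 1, giving 26 clusters, and fibroblast-like cells again with 1000 variable genes, 20 components and resolution 0.5. Names came from the marker list with the largest number of genes (3 or more) that were 2-fold above the other cells and seen in 20% of the cluster. The 6 PDGF genes and the pathway list were kept in the other set, whose genes alone were tested between classes.

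Raw counts were summed per tumor and class over both fractions (at least 20 cells a sum), and 7 comparisons were tested with edgeR 4.0.16 (TMM, filterByExpr, glmQLFit and glmQLFTest, two-sided, Benjamini-Hochberg at 0.05) in R 4.3.3, between classes in 1 fit of 7 classes. The class names were made on these cells, so the tests compare levels of other genes between them. The test step was also run on simulated counts with a common spread for all genes and no pairing by tumor. Such counts cannot show how the tests behave on these data. Shares were also taken after thinning each cell with at least 2000 UMIs to 2000 UMIs, with shallower cells left out. A count of 0 allows 3 counts. Poisson, Clopper-Pearson and conditional exact intervals (95%, scipy 1.17.1) cover counting error only. The fit with the tumor as a replicate block rests on the labels, and deviations of the 2 libraries of a tumor from their fraction means correlated at r = 0.698 over all cells and 0.640 within fibroblast-like cells. The alternatives were RLE scaling, DESeq2 1.42.0, no filter on low counts, the block, each sum left out, a higher resolution, doublet calls kept, a second gene split and the all live libraries alone. Promoter windows are RefSeq's, for 4 of the 6 genes, and gene positions are from the GENCODE annotation of mm10.

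By rule, all 6 PDGF genes are named in every comparison, up to 3 pathway genes a direction among those past the threshold, and the 3 genes with the most similar pattern among those with a mean of at least 10 CPM. Leading genes of clusters only identify them. The full genotype of the mice is not reported here.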

Additional observations from a re-analysis of the deposited data

How the results depend on the processing

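The counts of genes past the threshold moved by over 1.5 times under some settings. Against mesothelial-like cells (73 genes) they were 120 with DESeq2, 309 with no filter, 164 with the tumor as a replicate block and 1 in the all live libraries alone. Against ductal epithelial-like cells (1247) they were 694 in the all live libraries alone, and against blood endothelial-like cells (374) 649 with no filter and 249 in the all live libraries alone. Between inflammatory-like and myofibroblast-like fibroblasts (130) they were 351 with no filter, 695 with the block, 375 with doublet calls kept and 14 in the all live libraries alone. Between the sorted CAF and all live fractions (0) they were 438 with DESeq2 over all cells, and within fibroblast-like cells 19 with DESeq2, 63 with no filter, 85 with the block and 9 with doublet calls kept. With 1 sum left out, the counts ranged from 17 to 58 for the fractions within fibroblast-like cells, 538 to 1453 for the ductal comparison, 0 to 17 for the mesothelial, 116 to 175 for the endothelial, 838 to 1057 for the macrophage and 21 to 217 for the subclass comparison. A lone sum was assumed to vary like the others.

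Some uncalled log2 differences turned round. In the all live libraries alone they were -0.26 for Pdgfa against ductal epithelial-like cells, and 1.77 for Pdgfc and -0.39 for Pdgfra against mesothelial-like cells. Between the subclasses Pdgfc had -0.0781 with the block and -0.39 with doublet calls kept. With 1 sum left out, the fractions over all cells ranged from -0.77 to 1.12 for Pdgfa, -0.12 to 1.48 for Pdgfd and -0.0619 to 0.45 for Pdgfc, and within fibroblast-like cells from -0.74 to 1.09 for Pdgfc, -0.025 to 0.525 for Pdgfa and -0.80 to 0.00448 for Pdgfd. They ranged from -0.25 to 1.15 for Pdgfa (ductal), -1.25 to 1.77 for Pdgfc, -0.68 to 0.54 for Pdgfa and -0.10 to 1.17 for Pdgfra (mesothelial), -1.10 to 0.46 for Pdgfa (endothelial), -0.0244 to 1.64 for Pdgfc (macrophage) and -0.16 to -0.0314 for Pdgfc (subclasses). The cause was not tested.

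Of 435 fold changes of single PDGF genes under an alternative, 390 kept their direction and side of the threshold, 15 lost the call, 8 gained it and 22 turned round. Of 204 levels of single PDGF genes under an alternative, 160 stayed within their counting interval and 44 left it. Of those that left it, 41 were with cells thinned to 2000 UMIs and 3 with doublet calls kept. The interval was that of the unthinned counts, so it did not cover the larger counting error of a thinned value. Thinning also weighted cells equally and left out shallower ones. The cause was not tested. The block changed the calls of Pdgfra, Pdgfd and Pdgfa between the subclasses and no other call of a PDGF gene. In the doublet and all live settings 1 inflammatory-like sum met the minimum of 20 cells. Depth limits Pdgfb, Pdgfc and Pdgfd most, with few UMIs in classes of under 60 cells, and 2 tumors limit every test.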
